A study of Mus musculus with 16 samples.

Results

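Annulus fibrosus of mouse tail discs was compared between postnatal day 14 (P14) and postnatal day 5 (P5). The comparison used the 8 libraries of these ages, 4 per age, out of 16 in the series, and all genes of the deposited table. The annulus fibrosus is the lamellated fibrous ring of the intervertebral disc, which encloses the gelatinous nucleus pulposus. Both groups were wild-type C57BL/6 mice, with no treatment named in the labels, so that they differed by label in age alone. Each library was a pool of 2 to 3 mice of both sexes with 10 discs per mouse, from which the nucleus pulposus and the end plates had been dissected away, and ribosomal RNA was depleted before sequencing. The labels do not say whether pools of an age came from separate litters, so the p-values measure the spread between pools of an age, which may in part be technical. That spread was estimated also from the libraries of postnatal days 21 and 28 (P21 and P28) of the series.

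The inner annulus is built by cartilage-like cells and the outer annulus by tendon-like cells, which lay down collagen types II and I, aggrecan and elastic fibres in alternating lamellae. In the neonatal mouse this tissue still grows quickly, and growth genes of fetal life, many of them imprinted, are switched off in most organs during the first weeks after birth. Over the same weeks the tissue takes on load, hormones such as thyroid hormone rise in the blood, and the disc lies ever farther from its vessels.

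The table gave 11153528 to 20179991 reads per library at P5 and 10549937 to 23719004 at P14. All 14 genes used to check the tissue were present in every library. Col1a1 took 3.89% to 16.9% of the reads of a library and Col2a1 4.22% to 12.9%. The tendon and annulus transcription factor gene Mkx had 1130 to 2299 normalised reads and the sclerotome gene Pax1 2109 to 3258. The libraries were of 2 kinds. Gm26917, a transcript that shares sequence with ribosomal RNA, made up 8.05% to 12.1% of P5 replicates 1, 2 and 3 and of P14 replicates 3 and 4, and 2.43% to 4.3% of P5 replicate 4 and P14 replicates 1 and 2. Mitochondrially encoded genes took 10.6% to 20.2% in the former libraries and 2.62% to 3.71% in the latter. The former were also the shallower ones. A Gm26917 share of 6% separates the kinds, and its part in the results was not tested beyond the values given below. In P14 replicate 3 the X inactivation transcript Xist had 528 normalised reads, where the other libraries had 7320 to 41590. The Y-linked gene Kdm5d had 11.5 in P14 replicate 4 against 205.7 to 703.3 elsewhere. These 2 pools therefore carried mostly the transcripts of 1 sex each, unlike the mixed pools that the study's design describes. P14 replicate 2 also carried transcripts of neurons, with Snap25 at 269.5 normalised reads where the rest had 0 to 7.88.

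**Figure D1:**
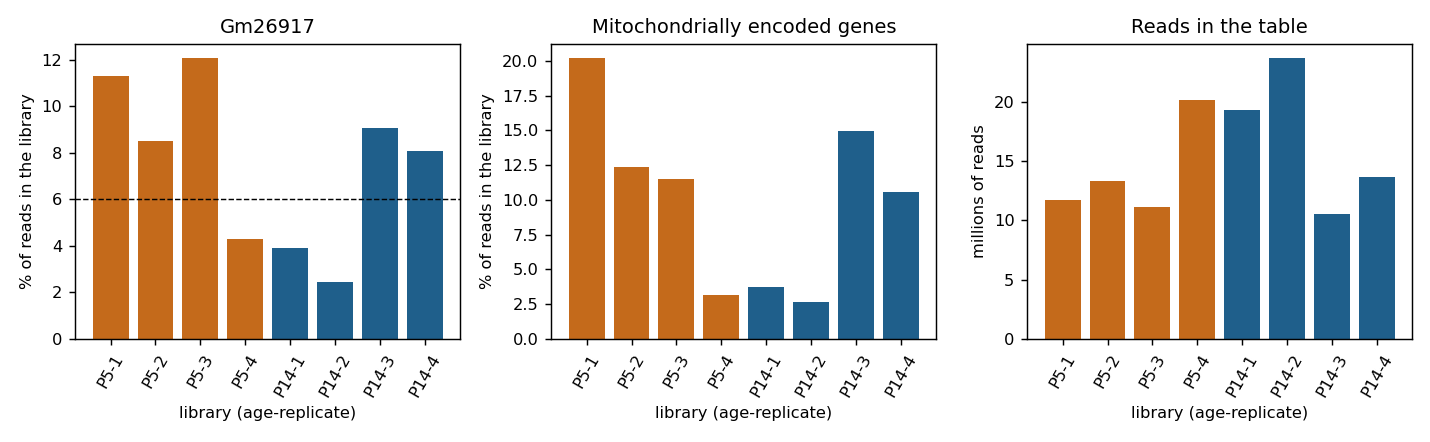
Share of reads on Gm26917 (left) and on mitochondrially encoded genes (middle) in percent, and total reads in the table (right), one bar per library, orange for P5 and blue for P14; the dashed line marks a Gm26917 share of 6%. P5-4, P14-1 and P14-2 lie under the line and have the most reads.

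Of 17577 genes with a mean of at least 10 normalised reads over all libraries, 1553 (8.84%) passed an adjusted p of 0.05 in limma, the test used throughout, with Benjamini-Hochberg adjustment over all genes. At P14, 857 genes (4.88%) were higher and 696 (3.96%) lower, and the median log2 fold change of all genes was 0.015. The ages did not overlap, with all 4 libraries of 1 age above the other 4, in 2457 genes (14%). The count of calls rested on single libraries. It was 946, 950 and 913 without P5 replicate 1, 2 or 3, 892 without P14 replicate 2, and 2517 without P5 replicate 4. The split between directions rested on the scaling. When libraries were scaled to the same total, 475 genes were higher and 1549 lower, the median of all genes moving to -0.242, and with Gm26917 and mitochondrial genes left out of that total 436 were higher and 2792 lower (median -0.366). Changes below are relative to the authors' scaling, in which the median gene is near 0. Counts of called genes by list stand against 4.88% higher and 3.96% lower of all genes under that scaling. Under the other scalings they stand against the counts just given.

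The 2 kinds of library gave separate comparisons, since they share no library of P5 or P14. Among the 5 libraries over 6% Gm26917, with P21 and P28 (all under 6%) adding to the spread estimate, 1237 genes were called. Of these, 1042 (84.2%) had the same sign in the 3 libraries under 6%, where P5 is 1 library, against 10830 (61.6%) of all genes. The share was 95.7% of the 559 genes called higher and 74.8% of the 678 called lower. A test of whether the age difference itself differed between the kinds called 1 gene, Col5a3, a minor fibrillar collagen gene named after its value was seen, and 1172 genes had an unadjusted p under 0.05.

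Predicted and clone-named genes, pseudogenes, histone genes and small, ribosomal or immunoglobulin RNA genes were left out of the rankings that follow. The called gene with the largest fold increase among the rest with 100 or more normalised reads at P14 and no overlap between ages was Slurp1 (ENSMUSG00000022596, chr15:74724318-74728034 on GRCm38), which encodes a small secreted protein of the Ly6 family. It had 21.9, 15.9, 2.78 and 25.4 normalised reads in P5 replicates 1 to 4 and 307.6, 498.3, 433.4 and 255.2 in P14 replicates 1 to 4, a log2 fold change of 4.69 ± 0.50 (standard error, as throughout; adjusted p = 7.32e-05). Tnr (ENSMUSG00000015829, chr1:159523769-159931729), the gene of the extracellular glycoprotein tenascin-R, had 14.6, 4.55, 9.72 and 13.6 at P5 and 177.5, 272.8, 323.1 and 170.1 at P14 (4.40 ± 0.35, adjusted p = 3.98e-06). Both genes were near their floor in all P5 libraries of either kind, and both had over 100 reads in each P14 library. Other secreted or surface products followed. Fold changes on the log2 scale were 3.98 ± 0.74 for Serpina1e, a gene of the alpha-1 antitrypsin family, 2.80 ± 0.25 for Sbsn, which encodes suprabasin, 2.78 ± 0.38 for Ly6c1 and 2.95 ± 0.49 for Plet1. Fxyd3, which encodes a regulator of the sodium pump, rose by 4.00 ± 0.47 and its neighbour Lgi4, the gene of a secreted protein of peripheral glia, by 3.30 ± 0.22. Fxyd3 and Lgi4 overlap on opposite strands over 42.5% and 44.9% of their exonic bases, and without a known strand setting their reads cannot be told apart. Reads of Serpina1e and Ly6c1 can likewise be shared with close paralogs. Fam131c (3.58 ± 0.26) and the noncoding Foxo6os (3.17 ± 0.48) completed the highest 12 with Grem1 and Cilp2, which are described with their pathways.

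The largest fold decreases under the same rule were in genes of immature muscle, matrix and mast cells. Myh8 and Myh3, the perinatal and embryonic myosin heavy chain genes, fell by 6.81 ± 1.5 and 6.68 ± 1.40 on the log2 scale. Postn (ENSMUSG00000027750, chr3:54361109-54391037), the gene of periostin, a matricellular protein of growing collagenous tissue, had 7373, 15680, 20020 and 3041 normalised reads at P5 and 213, 209.8, 925.9 and 632.9 at P14 (-4.51 ± 0.64, adjusted p = 0.000679). P5 replicate 4 was the lowest of its age and still above the highest P14 library. Egfl6, which encodes a matrix protein of the EGF repeat family, had 150.9 to 1176 at P5 and 8.19 to 100.5 at P14 (-4.04 ± 0.71, adjusted p = 0.00295). Adamts19, a metalloprotease gene, fell by 3.36 ± 0.59. Kera, the gene of keratocan, a small proteoglycan of cornea and tendon, had 584.1 to 1562 at P5 and 33.7 to 271.1 at P14 (-3.17 ± 0.59). Myom3, a sarcomere gene, fell by 3.42 ± 0.79.

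**Figure D2:**
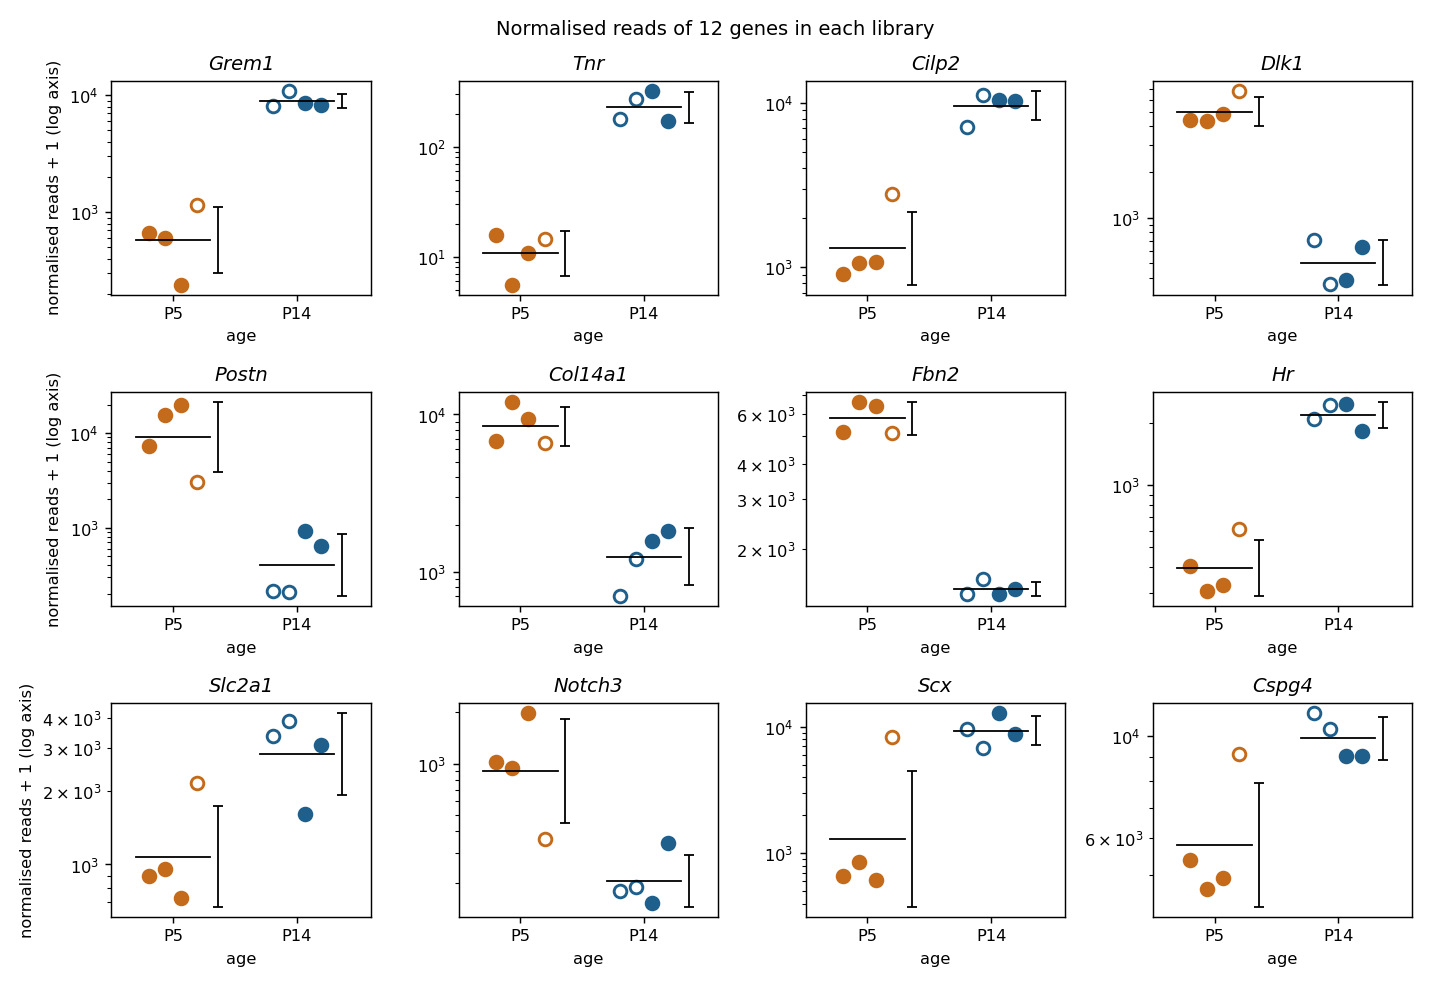
Normalised reads plus 1 on a log axis for 12 genes, one point per library in replicate order within an age, filled for libraries over 6% Gm26917 and open for those under; the line is the mean of the log2 values and the bar its SD over 4 libraries. Grem1, Tnr, Cilp2, Dlk1, Postn, Col14a1, Fbn2, Hr and Notch3 do not overlap between ages, while the open P5 point of Scx lies among the P14 points.

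Of 28 tested genes of a list of imprinted and fetal growth genes, 15 were lower at P14, 1 was higher and 12 were not called, and all fold changes but 1 were negative with a median of -1.09, against 0.015 over all genes. Dlk1 (ENSMUSG00000040856, chr12:109452823-109463336), an imprinted gene whose product resembles a Notch ligand, had 4376, 4314, 4793 and 6862 normalised reads at P5 and 711.8, 366.5, 388.1 and 638.7 at P14. The ages did not overlap and P5 replicate 4 was the highest library, and Dlk1 fell by 3.31 ± 0.35 on the log2 scale (adjusted p = 7.32e-05), with -3.17 in the libraries over 6% and -3.75 in those under. Mest, an imprinted gene of an alpha/beta hydrolase, had 8223 to 18180 at P5 and 1298 to 3935 at P14 (-2.58 ± 0.42, adjusted p = 0.00173). Mdk, the gene of the growth factor midkine, had 321.3 to 624.8 and 82.2 to 143.8 (-2.02 ± 0.31). Igf2, the fetal insulin-like growth factor gene, had 122300, 99970, 127400 and 187500 at P5 and 87500, 32560, 39710 and 45320 at P14 (-1.46 ± 0.33, adjusted p = 0.0111). P14 replicate 1 was the highest of its age and still below every P5 library. Igf2 overlaps annotated genes of its own strand over 64.5% of its exonic length, and Mest a gene of the opposite strand over 23.1%. H19, the imprinted noncoding neighbour of Igf2, fell by 1.74 ± 0.47 (adjusted p = 0.0305), a call that held without P5 replicate 4 or P14 replicate 1 and was lost without any other 1 library (adjusted p = 0.0531 to 0.108). Smoc1, a matrix protein gene named after its value was seen, was the 1 member that rose (1.54 ± 0.22, adjusted p = 0.000754). The median of the list was -1.01 in the libraries over 6% and -1.05 in those under. The count of decreases was 10 without P5 replicate 1 or 2 and 9 without P14 replicate 2.

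Of 18 tested genes of the insulin-like growth factor (IGF) axis, Igf2 among them, 5 were lower and 2 higher. Igfbp3, the gene of the main IGF carrier of serum, which also holds IGF in tissues, had 387.4 to 1656 normalised reads at P5 and 139.3 to 191.1 at P14 (-2.72 ± 0.45, adjusted p = 0.00206). Igf1 itself, the postnatal growth factor gene, had 3501, 2695, 3199 and 540.9 at P5 and 219.4, 155.1, 1460 and 1090 at P14 (-2.06 ± 0.68, adjusted p = 0.0727) and was not called. Its low P5 value came from replicate 4 and its high P14 values from replicates 3 and 4, so that it followed the kind of library as well as age, and without P5 replicate 4 (adjusted p = 0.00891) or P14 replicate 3 (adjusted p = 0.0265) it was called, as it was with the kind of library as a term (adjusted p = 0.00923). The list's decreases numbered 2 without P5 replicate 1 or P14 replicate 2, 3 without P5 replicate 2 or 3 or P14 replicate 1 or 4, and 8 without P5 replicate 4.

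Proliferation genes were lower on balance, and few passed the test. Of 31 genes of the G2 and M phases all 31 had negative fold changes, with a median of -0.83, and 1 was called, the kinesin gene Kif4 (-1.14 ± 0.33), which lost the call without any 1 library but P5 replicate 4 (adjusted p = 0.068 to 0.128). In 14 of them all P14 libraries lay below all P5 libraries, as in 1204 of all 17577 genes. Of 30 S phase genes 4 were lower, or 1 without P5 replicate 1, 2 or 3 or P14 replicate 2, 3 or 4, and none was higher (median -0.62), and 17 had all P14 libraries below all P5 libraries. At an unadjusted p under 0.05 the numbers were 18 and 17, against 4129 of all 17577 genes in either direction. When scaled to the total without Gm26917 and mitochondrial genes 15 and 16 were called lower, against 2792 of all genes. Tyms, the gene of thymidylate synthase, had 225.5 to 303.9 normalised reads at P5 and 108.1 to 165.7 at P14 (-1.0 ± 0.19, adjusted p = 0.00428), the S phase call that held whichever library was left out. Mki67, a marker of cycling cells, had 4114, 3365, 3152 and 3572 at P5 and 2804, 2257, 1263 and 1905 at P14 (-0.84 ± 0.38, adjusted p = 0.193). Its ages did not overlap, but it was not called. All 25 replication-dependent histone genes were also lower (median -0.91), with 1 called and 17 without overlap. Of 15 cell cycle inhibitor genes 1 rose and 2 fell, with a median of -0.01. The growth arrest gene Cdkn1a had 385.7, 348.1, 424.8 and 298.4 at P5 and 781.8, 1109, 750.6 and 746.8 at P14, a rise of 1.21 ± 0.18 (adjusted p = 0.000768). The imprinted inhibitor gene Cdkn1c fell by 1.31 ± 0.34, a call that failed the threshold without P5 replicate 1 or P14 replicate 2 or 3 (adjusted p = 0.0669 to 0.073), and Gas2, a growth arrest gene, by 2.19 ± 0.33 (adjusted p = 0.00113).

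The major collagen genes were not called. Col1a1, the gene of the main chain of type I collagen, had 666600, 918500, 697100 and 1362000 normalised reads at P5 and 1867000, 3329000, 2300000 and 2347000 at P14 (1.46 ± 0.87, adjusted p = 0.336). All P14 libraries lay above all P5 libraries, but limma's fitted error was wide, while limma with a robust prior (adjusted p = 0.0137) and DESeq2 (adjusted p = 3.47e-05) called it. Col2a1, the cartilage collagen gene, had 722800 to 2208000 at P5, with replicate 4 the highest of the 8 libraries, and 1172000 to 1787000 at P14 (0.55 ± 0.73). Of 11 fibrillar collagen genes 1 fell (3 without P5 replicate 4), Col24a1, which is expressed in developing bone, with 425.6 to 2617 at P5 and 109.6 to 231.2 at P14 (-2.53 ± 0.55, adjusted p = 0.00957). The genes of fibril-associated and type VI collagens split evenly, with 3 of 12 lower and 3 higher, or 5 and 1 when scaled to the same total. Col14a1 (ENSMUSG00000022371, chr15:55307750-55520803), whose product coats the fibrils of young tendon and skin, had 6752, 12020, 9319 and 6624 at P5 and 704.5, 1212, 1578 and 1827 at P14 (-2.75 ± 0.31, adjusted p = 9.98e-05). Col6a6, an alternative chain of the pericellular type VI collagen, had 313.7 to 1608 at P5 and 19.9 to 96.5 at P14 (-4.06 ± 0.52). The main chain Col6a3 instead rose, with 39650 to 47650 at P5 and 73630 to 116600 at P14 (1.05 ± 0.27, adjusted p = 0.0206), which failed the threshold on leaving out P5 replicate 1, 2 or 3 or P14 replicate 2 (adjusted p = 0.0502 to 0.0748). The list had no increase left without P5 replicate 1, 2 or 3 or P14 replicate 2, and 1 without P14 replicate 1 or 4.

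Small proteoglycan genes also went both ways, with 3 of 15 higher and 4 lower, or 5 each without P5 replicate 4 and 2 each without P5 replicate 3 or P14 replicate 2 or 4. Chad, which encodes chondroadherin, a cell-binding protein of cartilage and annulus, had 11640, 13000, 12280 and 39470 normalised reads at P5 and 67960, 87220, 42140 and 58880 at P14 (1.91 ± 0.37, adjusted p = 0.00459). P5 replicate 4 lay close to the lowest P14 library. Dcn, the gene of decorin, which binds type I collagen fibrils, had 4342 to 7041 at P5 and 1346 to 2018 at P14 (-1.61 ± 0.33, adjusted p = 0.00644). Besides Kera, the related corneal and tendon proteoglycan gene Lum fell by 1.96 ± 0.52, which failed the threshold on leaving out P5 replicate 1 or 3 or P14 replicate 2 or 4 (adjusted p = 0.0674 to 0.0964).

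Of 19 genes of elastic fibres and microfibrils 7 were lower, none was higher and the median was -0.54. The gene of the main microfibril protein, Fbn1, was not among the 7, with 5935 to 7525 normalised reads at P5 and 5733 to 7649 at P14 (0.01 ± 0.17, adjusted p = 0.99). Fbn2 (ENSMUSG00000024598), the fibrillin gene of developing tissues, had 5161, 6565, 6389 and 5109 normalised reads at P5 and 1391, 1576, 1395 and 1448 at P14 (-1.99 ± 0.21, adjusted p = 7.25e-05). The libraries of each age lay close together whichever kind they were, and the ages did not overlap. Mfap4, which encodes a microfibril-associated glycoprotein, had 2224 to 4939 and 326.8 to 990.9 (-2.39 ± 0.42). Fbln2, the gene of fibulin-2, which links microfibrils to basement membranes, fell by 1.68 ± 0.34. Eln had 8559, 7261, 10750 and 5798 at P5 and 9449, 8481, 19970 and 6750 at P14 (0.37 ± 0.30, adjusted p = 0.505), with the ages overlapping. The number of decreases stayed between 6 and 9 whichever library was left out, and in the libraries over 6% it was 7, of which 6 had the same sign in those under.

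Genes that process and crosslink collagen rose more often than they fell, with 10 of 30 higher, 3 lower and a median of 0.56, although scaled to the same total 5 were higher and 6 lower (median 0.30). Pcolce2, an enhancer of procollagen cleavage, had 1464, 946.5, 565.1 and 2436 normalised reads at P5 and 5675, 7423, 4937 and 4602 at P14 (2.24 ± 0.34, adjusted p = 0.00108). P3h2, a prolyl hydroxylase gene, had 620 to 919 and 1819 to 2478 (1.58 ± 0.17, adjusted p = 8.74e-05). The crosslinking enzyme gene Lox had 6680, 7708, 7363 and 21720 at P5 and 20510, 33550, 12640 and 27760 at P14 (1.22 ± 0.36, adjusted p = 0.0439). P5 replicate 4 lay within the P14 values, and Lox was called only with P5 replicates 1, 2 and 3 and P14 replicates 1, 2 and 4 all present (adjusted p = 0.0711 to 0.143 without 1 of them). Of the 10 increases in the libraries over 6%, 9 had the same sign in those under, but the list median there was -0.05. Increases numbered 5 or 6 without P5 replicate 1, 2 or 3 or P14 replicate 2, and 18 without P5 replicate 4.

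Among cartilage-type matrix genes 4 of 20 were higher and 2 lower. Cilp2 (ENSMUSG00000044006, chr8:69880369-69887687), the gene of a cartilage intermediate layer protein, had 905.9, 1058, 1077 and 2776 normalised reads at P5 and 7070, 11180, 10430 and 10270 at P14 (2.88 ± 0.31, adjusted p = 7.32e-05). Vcan, the gene of the large proteoglycan versican, had 9771 to 14870 at P5 and 20880 to 37610 at P14 (1.45 ± 0.29). Acan, the gene of aggrecan, had 47900, 36450, 28960 and 128600 at P5 and 172400, 153400, 73370 and 94770 at P14 (1.21 ± 0.41, adjusted p = 0.0795), with P5 replicate 4 inside the P14 range, and was called without that library (adjusted p = 0.00264), in the libraries over 6% (adjusted p = 0.0344) and with the kind of library as a term (adjusted p = 0.0478). Leaving out P5 replicate 4 raised the list's increases to 12, and leaving out P5 replicate 1, 2 or 3 or P14 replicate 2 reduced them to 2. Of 24 genes that build glycosaminoglycan chains 5 were higher and none lower. When scaled to the total without Gm26917 and mitochondrial genes 3 were higher and 2 lower, against 436 and 2792 of all 17577 genes. The 5 increases included Chst3, which sulphates chondroitin (903 to 1521 against 2208 to 4417, 1.34 ± 0.24), and Csgalnact2, which starts the chondroitin chain (1.19 ± 0.25). These increases numbered 2 without P5 replicate 1, 2 or 3 or P14 replicate 1 or 2, and 8 without P5 replicate 4.

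Matrix proteases were lower more often than higher. Of 22 genes of proteases and their inhibitors 7 fell and 4 rose, and 7 to 9 fell whichever library was left out. Mmp16, a membrane-type matrix metalloprotease gene, had 635.9 to 1220 normalised reads at P5 and 171.4 to 416 at P14 (-1.84 ± 0.31, adjusted p = 0.00219), and Adamts15, which encodes a versican-cleaving protease, fell by 2.08 ± 0.43. Timp4, the gene of an inhibitor of metalloproteases, had 4.55 to 20.8 and 27.4 to 82.1 (2.37 ± 0.49), and Mmp3, the stromelysin gene, rose by 1.68 ± 0.37. All 8 decreases called in the libraries over 6% kept their sign in those under. Among matricellular genes Tnn, which encodes the periosteal tenascin-W, fell from 299.5, 384.5, 2121 and 793.5 at P5 to 127.4, 91.2, 106.4 and 51.9 at P14 (-2.88 ± 0.44, adjusted p = 0.00113), the opposite of its relative Tnr.

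Tendon and annulus regulators showed how far a call could rest on the kind of library. Scx (ENSMUSG00000034161, chr15:76457452-76459458), which encodes scleraxis, a transcription factor of tendon progenitors, had 661.9, 845.2, 613.7 and 8267 normalised reads at P5 and 9695, 6804, 12880 and 8812 at P14. P5 replicate 4 lay among the P14 libraries. The fitted rise was 2.84 ± 0.62 (adjusted p = 0.00981), with 3.93 in the libraries over 6% and -0.03 in those under, and it passed neither by edgeR (adjusted p = 0.108) nor by DESeq2 (adjusted p = 0.0554). Scx lies in an intron of Bop1, a ribosome biogenesis gene on the other strand, which had 663.3, 488, 473.4 and 17620 at P5 and 25280, 13310, 30820 and 21520 at P14 (4.08 ± 0.86), or 5.59 and 0.06 in the libraries over and under 6%. Mkx (-0.11 ± 0.20, adjusted p = 0.794), Tnmd, a membrane protein gene of tendon cells (0.92 ± 0.37, adjusted p = 0.143), and the cartilage factor gene Sox9 (0.71 ± 0.28, adjusted p = 0.133) were not called, Sox9 passing without P5 replicate 4 (adjusted p = 0.00498). Aqp1, a water channel gene of tendon, annulus and vessels, had 478.1 to 1948 at P5 and 243.9 to 327.5 at P14 (-1.63 ± 0.36, adjusted p = 0.00997).

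Antagonists of bone morphogenetic proteins (BMPs), secreted factors that drive cartilage and bone formation, were among the genes that rose. Of 39 TGF-beta and BMP pathway genes 8 were higher and 2 lower, and 6 to 11 were higher whichever library was left out. When scaled to the total without Gm26917 and mitochondrial genes 5 were higher and 8 lower, against 436 and 2792 of all 17577 genes. Grem1 (ENSMUSG00000074934, chr2:113746164-113758646), the gene of the BMP antagonist gremlin, had 663.3, 605.2, 238.8 and 1147 normalised reads at P5 and 8118, 10910, 8599 and 8253 at P14 (3.95 ± 0.39, adjusted p = 3.86e-05). All P14 libraries lay close together and far above every P5 library. Chrdl2, another BMP antagonist gene, had 217.7, 203.6, 140.2 and 288.2 and then 816.4, 933.7, 1074 and 977.5 (2.19 ± 0.20, adjusted p = 1.61e-05). Of the ligands, Gdf6, a joint-forming BMP that is needed for spinal segmentation, had 38 to 88.7 at P5 and 276.7 to 351.6 at P14 (2.44 ± 0.40, adjusted p = 0.00174), while Bmp4 had 30.5 to 100 and 7.46 to 24.5 (-2.09 ± 0.40, adjusted p = 0.00459). Tgfb1 had 891.3 to 1321 and 1201 to 1809 (0.51 ± 0.17, adjusted p = 0.0651) and was called without P5 replicate 4 (adjusted p = 0.0191) or P14 replicate 4 (adjusted p = 0.044) and by DESeq2 (adjusted p = 0.0335). All 6 increases called in the libraries over 6% kept their sign in those under.

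Secreted inhibitors led the Wnt genes, of which 6 of 38 were higher and 2 lower. When scaled to the total without Gm26917 and mitochondrial genes 5 were higher and 8 lower, against 436 and 2792 of all 17577 genes. Sfrp5, a Wnt-binding antagonist gene, had 545, 227.5, 190.2 and 1523 normalised reads at P5 and 2360, 1969, 2744 and 1210 at P14 (2.18 ± 0.49, adjusted p = 0.0106), with P5 replicate 4 above the lowest P14 library. Wif1, the Wnt inhibitory factor gene, had 1653, 3077, 1912 and 6072 and then 7493, 10800, 6708 and 9687 (1.62 ± 0.31, adjusted p = 0.00428). Rspo2, which encodes an amplifier of Wnt signals, went down from 162.8 to 358 at P5 to 23.7 to 115.3 at P14 (-2.13 ± 0.43, adjusted p = 0.00594), as did Sfrp1, another antagonist gene (-1.59 ± 0.27). Without P5 replicate 4 the list had 8 increases and 5 decreases.

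Of 14 Hedgehog pathway genes 3 rose and none fell, against 857 and 696 of all 17577 genes. When scaled to the total without Gm26917 and mitochondrial genes 2 rose and 4 fell, against 436 and 2792 of all genes. The 3 increases included Foxf2, a transcription factor gene downstream of Hedgehog in sclerotome (273.5 to 638.3 against 842.8 to 1237, 1.08 ± 0.22, adjusted p = 0.0063), and Cdon, a co-receptor gene (1.06 ± 0.17, adjusted p = 0.00197). Gli1, the usual readout of the pathway, had 937.2 to 1257 and 750.4 to 1225 (adjusted p = 0.908). The ligand genes Shh and Dhh were among the listed genes not analysed here. Of 18 fibroblast growth factor (FGF) pathway genes 5 were lower and 1 higher. The feedback inhibitor gene Spry1 fell by 1.85 ± 0.40, from 119.5 to 645.6 to 51.9 to 126.1 normalised reads, and the receptor gene Fgfr4 by 1.70 ± 0.33 (91 to 117.8 against 23.2 to 61.9). FGF decreases numbered 3 without P5 replicate 1, 2 or 3 or P14 replicate 3.

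Of 16 Notch pathway genes 8 were lower and none higher, with a median of -0.98. The largest of these decreases was Dlk1, counted above with the fetal growth genes too. Notch3 (ENSMUSG00000038146, chr17:32120820-32166852), the receptor of vascular mural cells, had 1013, 936.2, 1976 and 357.7 normalised reads at P5 and 177.5, 188.2, 151.7 and 340.3 at P14 (-2.15 ± 0.41, adjusted p = 0.00473). P5 replicate 4 was close to P14 replicate 4. The ligand gene Dll4, typical of sprouting endothelium, fell by 1.51 ± 0.36 (adjusted p = 0.0144), which failed the threshold on leaving out P5 replicate 1 or 3 (adjusted p = 0.0556 and 0.056). Of 18 endothelial marker genes 8 were lower and none higher. Their summed level was 6845, 6007, 7781 and 3128 at P5 and 3427, 4290, 2833 and 3470 at P14, so that P5 replicate 4 lay with the P14 libraries. Egfl7, a gene of an angiogenic secreted factor, had 105.1 to 494.3 and 53.2 to 85 (-1.82 ± 0.34, adjusted p = 0.00428), and Sox17, an arterial transcription factor gene, 12.7 to 78.9 and 3.94 to 13.3 (-2.59 ± 0.47). The endothelial median was -2.30 in the libraries over 6% and 0.08 in those under, and the Notch median -1.45 and -0.24. Of 14 endothelial decreases called in the former 6 kept their sign in the latter, and of 9 Notch decreases 8 did. Notch decreases numbered 4 without P5 replicate 1 or 3, 5 without P14 replicate 1, 2 or 4 and 10 without P5 replicate 4; endothelial ones 4 without P5 replicate 1, 3 without P5 replicate 3 and 14 without P5 replicate 4. In bulk RNA fewer vessel cells and less of these transcripts per cell cannot be told apart, here or for any cell type below, and the part of vessels in the Notch decrease was not tested.

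Target genes of thyroid hormone and glucocorticoids rose more often than they fell. Of 19 listed genes 5 were higher and 1 was lower (3 and 2 when scaled to the same total), against 4.88% and 3.96% of all genes. Hr (ENSMUSG00000022096, chr14:70552212-70573548), a corepressor gene directly induced by thyroid hormone in brain and skin, had 404.7, 306, 326.3 and 613.8 normalised reads at P5 and 2081, 2448, 2474 and 1828 at P14 (2.46 ± 0.18, adjusted p = 2.02e-06). All P14 libraries lay above all P5 libraries, and the rise was 2.63 in the libraries over 6% and 1.88 in those under. Klf9, a transcription factor gene that responds to both hormones, had 365.3, 350.4, 323.5 and 516.3 and then 952.1, 1439, 1176 and 934.3 (1.53 ± 0.30, adjusted p = 0.00504). The receptor gene Thrb, named after its value was seen, rose by 0.94 ± 0.21 (adjusted p = 0.0107). The list's increases numbered 3 without P5 replicate 1 or 3 or P14 replicate 2 or 4.

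Of 19 genes of the circadian clock 8 were higher and none lower (5 and 1 when scaled to the same total), with a median of 0.70, and all 7 increases called in the libraries over 6% kept their sign in those under. Nr1d1 (ENSMUSG00000020889, chr11:98767932-98775333), which encodes the repressor REV-ERB alpha, had 482.2, 491.4, 576.2 and 634.1 normalised reads at P5 and 1293, 2219, 1724 and 1155 at P14 (1.51 ± 0.24, adjusted p = 0.00157). Dbp, a clock output gene, had 69.4 to 133 and 199.3 to 312.6 (1.31 ± 0.29, adjusted p = 0.00958), the repressor gene Bhlhe41 387.4 to 817.2 and 1060 to 1604 (1.26 ± 0.23), and Rora, the activator that competes with REV-ERB, 1387 to 1718 and 2335 to 4308 (1.18 ± 0.27). In each of these 4 genes every P14 library lay above every P5 library. The time of day of collection is not given in the labels, and age and time of day cannot be told apart. Increases numbered 5 without P5 replicate 1, 2 or 3 or P14 replicate 2, 3 or 4.

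Of 30 genes of glycolysis and hypoxia 17 were higher and none lower (9 and none when scaled to the same total), the median was 0.87, and 28 of the fold changes were positive. Slc2a1 (ENSMUSG00000028645, chr4:119108711-119137983), the gene of the glucose transporter GLUT1, had 894.2, 956.7, 727.5 and 2163 normalised reads at P5 and 3361, 3885, 1617 and 3103 at P14 (1.40 ± 0.31, adjusted p = 0.0104). P5 replicate 4 lay above P14 replicate 3 but below the other 3 P14 libraries. Egln3, which encodes an oxygen-sensing prolyl hydroxylase that is itself a hypoxia target, had 188.5, 143.3, 86.1 and 205.2 and then 365.9, 577.9, 260 and 475.8 (1.44 ± 0.31, adjusted p = 0.00875), and the glucose transporter gene Slc2a3 had 95.8 to 159.4 and 200.9 to 406.6 (1.26 ± 0.20, adjusted p = 0.00151). Bnip3, a mitophagy gene, had 835.8 to 2191 and 2512 to 4153 (1.26 ± 0.32, adjusted p = 0.0219), which failed the threshold on leaving out P5 replicate 1, 2 or 3 or P14 replicate 2 or 4 (adjusted p = 0.0537 to 0.0833). Of 16 increases called in the libraries over 6%, 14 kept their sign in those under, where the median was 0.40 against 1.03. Increases numbered 10 without P5 replicate 1 or 2 or P14 replicate 4, and 9 without P5 replicate 3 or P14 replicate 2. By contrast none of 35 nuclear genes of oxidative phosphorylation was called (median 0.11, and 2 with an unadjusted p under 0.05), none of 13 mitochondrially encoded genes, and none of 34 cytosolic ribosomal protein genes (no member with an unadjusted p under 0.05 in either). Neither edgeR nor DESeq2 called a gene of these 3 lists.

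**Figure D3:**
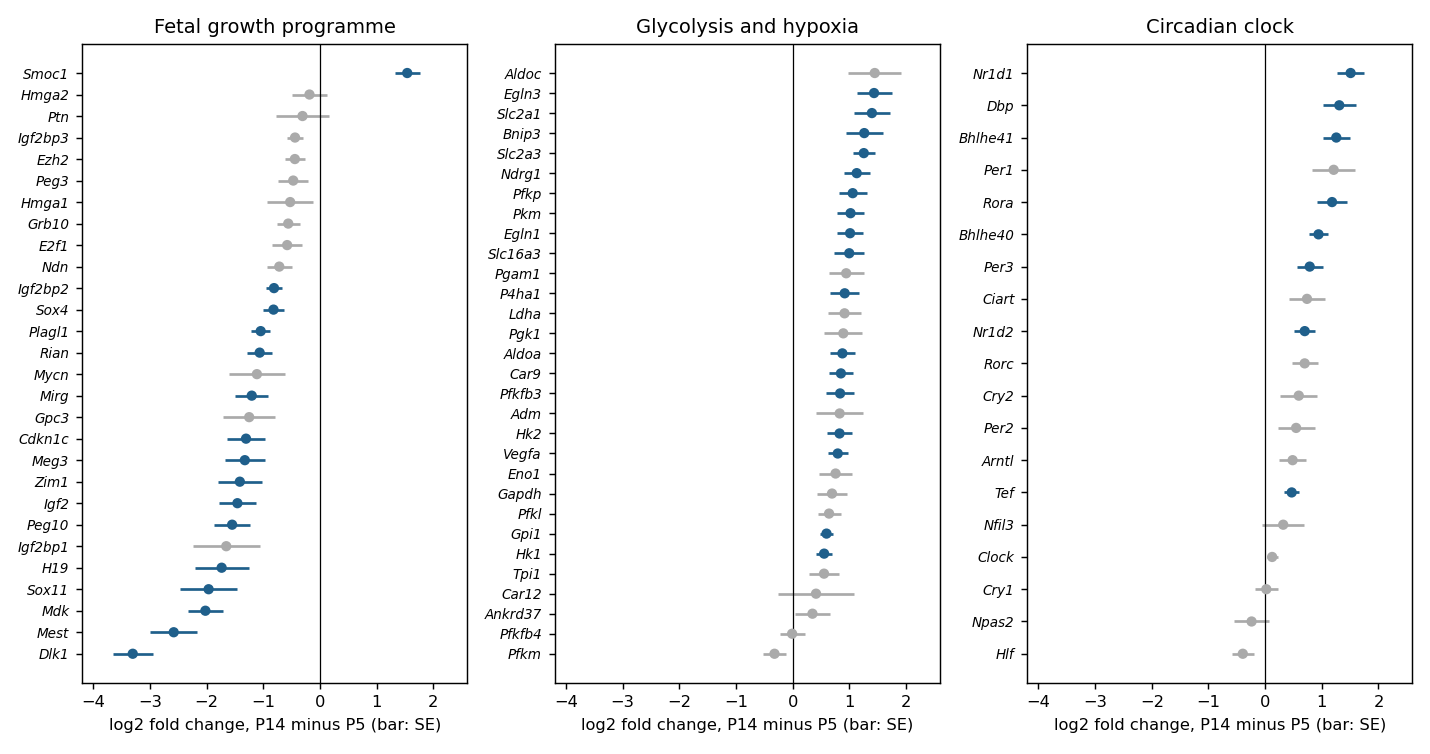
Log2 fold change, P14 minus P5, with its standard error for each tested gene of the fetal growth list (28 genes), the glycolysis and hypoxia list (30) and the clock list (19), blue where called and grey where not. The 15 decreases of the first list and the 17 and 8 increases of the others lie on opposite sides of 0, with Smoc1 the exception in the first.

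The core letters of the hypoxia response element, ACGTG, were searched on both strands in the 250 bases before the transcription start of each gene, in RefSeq promoters of GRCm38.p6. They occurred in 2806 of 11591 tested genes with a promoter (24.2%), in 17 of 28 genes of the glycolysis and hypoxia list (60.7%), and in 12 of its 15 called genes with a promoter (80%). The E-box CACGTG of clock factors, which contains ACGTG, occurred in 1099 of the 11591 genes (9.48%), in 5 of 16 clock genes (31.2%) and in 4 of 28 glycolysis and hypoxia genes (14.3%). Since 10 of 16 clock genes (62.5%) also held ACGTG, these letters were not particular to either list. A match describes the letters alone. The windows below, of 100 bases and with the matched letters of either strand in capitals, show them in Slc2a1 and Egln3, in Slc16a3, a lactate exporter gene with 2 matches, and in P4ha1, a collagen prolyl hydroxylase gene of both the collagen processing and the hypoxia lists. Slc16a3 (1.00 ± 0.27, adjusted p = 0.0275) and P4ha1 (0.92 ± 0.26, adjusted p = 0.037) were picked after their values were seen, and without P5 replicate 1, 2 or 3 or P14 replicate 2 or 4 both lost the call (adjusted p = 0.0573 to 0.128), P4ha1 also without P14 replicate 1. The windows lie at chr4:119108645-119108744 (plus strand), chr12:54204014-54204113 (minus), chr11:120948967-120949066 (plus) and chr10:59323196-59323295 (plus).
Slc2a1: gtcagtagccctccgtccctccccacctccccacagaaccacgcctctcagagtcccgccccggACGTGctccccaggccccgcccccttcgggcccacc
Egln3: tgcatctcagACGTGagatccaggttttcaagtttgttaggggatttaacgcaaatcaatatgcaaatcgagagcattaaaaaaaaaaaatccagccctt
Slc16a3: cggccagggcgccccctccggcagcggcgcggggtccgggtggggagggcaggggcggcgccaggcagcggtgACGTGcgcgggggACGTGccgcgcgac
P4ha1: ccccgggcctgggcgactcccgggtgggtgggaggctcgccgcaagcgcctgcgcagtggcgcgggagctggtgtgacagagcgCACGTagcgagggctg

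Of 16 genes of hypertrophic cartilage and mineralising matrix 5 rose (8 without P5 replicate 4) and none fell. In the libraries over 6% 2 increases were called. Col10a1 (3.10 ± 0.96, adjusted p = 0.0547), Runx2 (0.06 ± 0.49), Sp7 (-0.06 ± 0.41), Mef2c (-0.21 ± 0.29) and Dmp1 (-0.40 ± 0.82) were among those not called. Of 15 osteoblast and osteocyte genes 1 rose, Ibsp, which is on both lists, and 1 fell. Ibsp, the bone sialoprotein gene, had 640, 384.5, 2134 and 735.8 normalised reads at P5 and 11750, 17220, 1464 and 3480 at P14 (2.84 ± 0.65, adjusted p = 0.0117). Alpl, the gene of alkaline phosphatase, had 729.1, 311.7, 1386 and 938.4 and then 7773, 8619, 1393 and 2419 (2.39 ± 0.54, adjusted p = 0.0106). P14 replicate 3 lay below P5 replicate 3 in Ibsp and barely above it in Alpl. Ank, which encodes an exporter of pyrophosphate, an inhibitor of mineralisation, had 1499 to 1983 and 3843 to 5687 (1.41 ± 0.16, adjusted p = 0.00011) and was as high in P14 replicates 3 and 4 as in replicates 1 and 2. The summed level of the list was 69770 and 92780 in P14 replicates 1 and 2 against 25740 and 28620 in replicates 3 and 4 and 11340 to 23520 at P5. Osteoclast genes, 13 tested, had no call in either direction (none with an unadjusted p under 0.05, and none by edgeR or DESeq2). Their matrix protease gene Mmp9 had 149 to 960.8 at P5 and 2679, 5234, 392 and 281.1 at P14.

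Markers of the nucleus pulposus and notochord were higher in 6 of 14 genes and lower in 1, although this tissue had been dissected away. T, the brachyury gene of notochord cells, had 258.6, 381.1, 148.6 and 633.3 normalised reads at P5 and 3640, 3842, 476.7 and 2399 at P14 (2.68 ± 0.55, adjusted p = 0.00672). Krt8, a keratin gene of the same cells, had 125.7, 62.6, 86.1 and 136.5 and then 1012, 1161, 208.8 and 677.6 (2.69 ± 0.45, adjusted p = 0.00227), and their surface protein gene Cd24a rose by 2.13 ± 0.49. P14 replicate 3 was the lowest of its age in all 3 genes. Fold changes were positive in 10 of the 14 genes. The decrease was Sln (-3.73 ± 0.85, adjusted p = 0.0115). Basp1 (-1.01 ± 0.41), Foxa1 (-0.43 ± 0.46) and Foxa2 (-0.06 ± 0.44) had negative fold changes and were not called. The summed level of the list was 6637 to 11090 at P5 and 32790, 38880, 8469 and 21730 at P14. The listed genes Noto and Shh were not analysed here. Slc2a1 belongs to this list too, and the summed level of the glycolysis list was also lowest at P14 in replicate 3. The part of nucleus pulposus RNA in those increases was not tested.

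The embryonic myosin gene Myh3 (ENSMUSG00000020908, chr11:67078300-67102291) had 622.4, 1602, 5367 and 171.2 normalised reads at P5 and 3.64, 0.83, 63 and 14.4 at P14 (adjusted p = 0.00774). Of 25 muscle genes 4 were called lower and none higher, and all fold changes but 2 were negative, with a median of -2.81. Their summed level was 17320, 45230, 225900 and 6942 at P5 and 1049, 721.3, 7322 and 9365 at P14, so that the ages overlapped, P5 replicate 4 lying below P14 replicates 3 and 4. Without P5 replicate 4 the count was 12, without P14 replicate 3 it was 7, and DESeq2 called 11.

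Of 10 tested mast cell genes 6 were lower and none higher, and the median was -2.25 in the libraries over 6% and -1.76 in those under. Cpa3 (ENSMUSG00000001865, chr3:20215620-20242181), the carboxypeptidase gene of mast cell granules, had 162.2, 138.8, 111.1 and 33.9 normalised reads at P5 and 0.91, 0.83, 19.7 and 20.2 at P14 (-3.96 ± 0.88, adjusted p = 0.0105). Cma1, the chymase gene, had 56 to 191.4 and 0.83 to 27.6 (-3.73 ± 0.72), and Tpsb2, a tryptase gene with a close paralog, 63.6 to 239.6 and 3.32 to 29.6 (-3.60 ± 0.67). P5 replicate 4 was the lowest P5 library and P14 replicates 1 and 2 were the lowest of all in each of these genes. The listed receptor genes Ms4a2 and Fcer1a were not analysed here. The summed level of the list was 1395, 1174, 840 and 378.9 at P5 and 154.7, 175, 338.9 and 302.8 at P14. Macrophage genes gave 2 decreases among 15, or 8 without P5 replicate 4 and 1 without P5 replicate 1, 2 or 3 or P14 replicate 1 or 3, Mrc1 (90.7 to 392.9 against 27.3 to 108.4, -2.06 ± 0.46) and Adgre1, but their summed level was 490.9 in P5 replicate 4 and 701.7 to 1061 at P14. The Adgre1 call (-1.77 ± 0.49) failed the threshold on leaving out P5 replicate 1, 2 or 3 or P14 replicate 1 or 3 (adjusted p = 0.0753 to 0.108).

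B cell genes were higher at P14. Of 9 lymphocyte genes 7 were higher and none lower, with a median of 2.18. Pax5, the B lineage factor gene, had 7.31, 2.28, 33.3 and 3.39 and then 48.2, 86.2, 37.4 and 63.4 (2.83 ± 0.59, adjusted p = 0.007). Igkc, the kappa light chain gene, had 0 to 6.83 and 21.7 to 45.6 (3.45 ± 0.62). The levels are low, and P14 replicate 3 was the lowest of its age in both. Genes of the T cell receptor complex on the list, Cd3e, Cd3g and Cd3d, were not analysed here. Neutrophil and marrow myeloid genes (12) and red cell precursor genes (13) had positive fold changes throughout without any call. In each list 5 had an unadjusted p under 0.05, against 4129 of all 17577 genes. DESeq2 called 3 of the former and none of the latter, edgeR none, and limma 3 of the former without P14 replicate 3. The summed myeloid level was 57.6 to 277.7 at P5 and 650.8, 1165, 169.4 and 467.1 at P14, and the median rise was 3.85 in the libraries under 6% against 0.18 in those over.

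Among the remaining lists of other tissues, 3 of 11 epidermal genes rose, Sbsn, Scel and Dmkn (5 without P14 replicate 3). Sbsn had 50 to 95 normalised reads at P5 and 438.7 to 671.6 at P14, and Dmkn, an epidermal secreted protein gene, 6.83 to 14.6 and 24.6 to 93.7 (2.21 ± 0.42, adjusted p = 0.00459). The keratin genes Krt1 and Krt14, which define epidermis, were not analysed here. The summed level of the list was 581.7 to 1059 and 1261 to 2643. Of 11 adipocyte genes 2 rose, the lipid synthesis genes Scd1 (1502 to 5086 against 5258 to 10220, 1.58 ± 0.32) and Dgat2 (1.61 ± 0.27). Neuronal and central glial genes, 17 tested, gave no call, none by edgeR and 2 by DESeq2. Of them 4 had an unadjusted p under 0.05, a share near the 4129 of all 17577 genes. Their summed level was 2305 in P14 replicate 2, above the 449.8 to 816.7 of the rest.

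**Figure D4:**
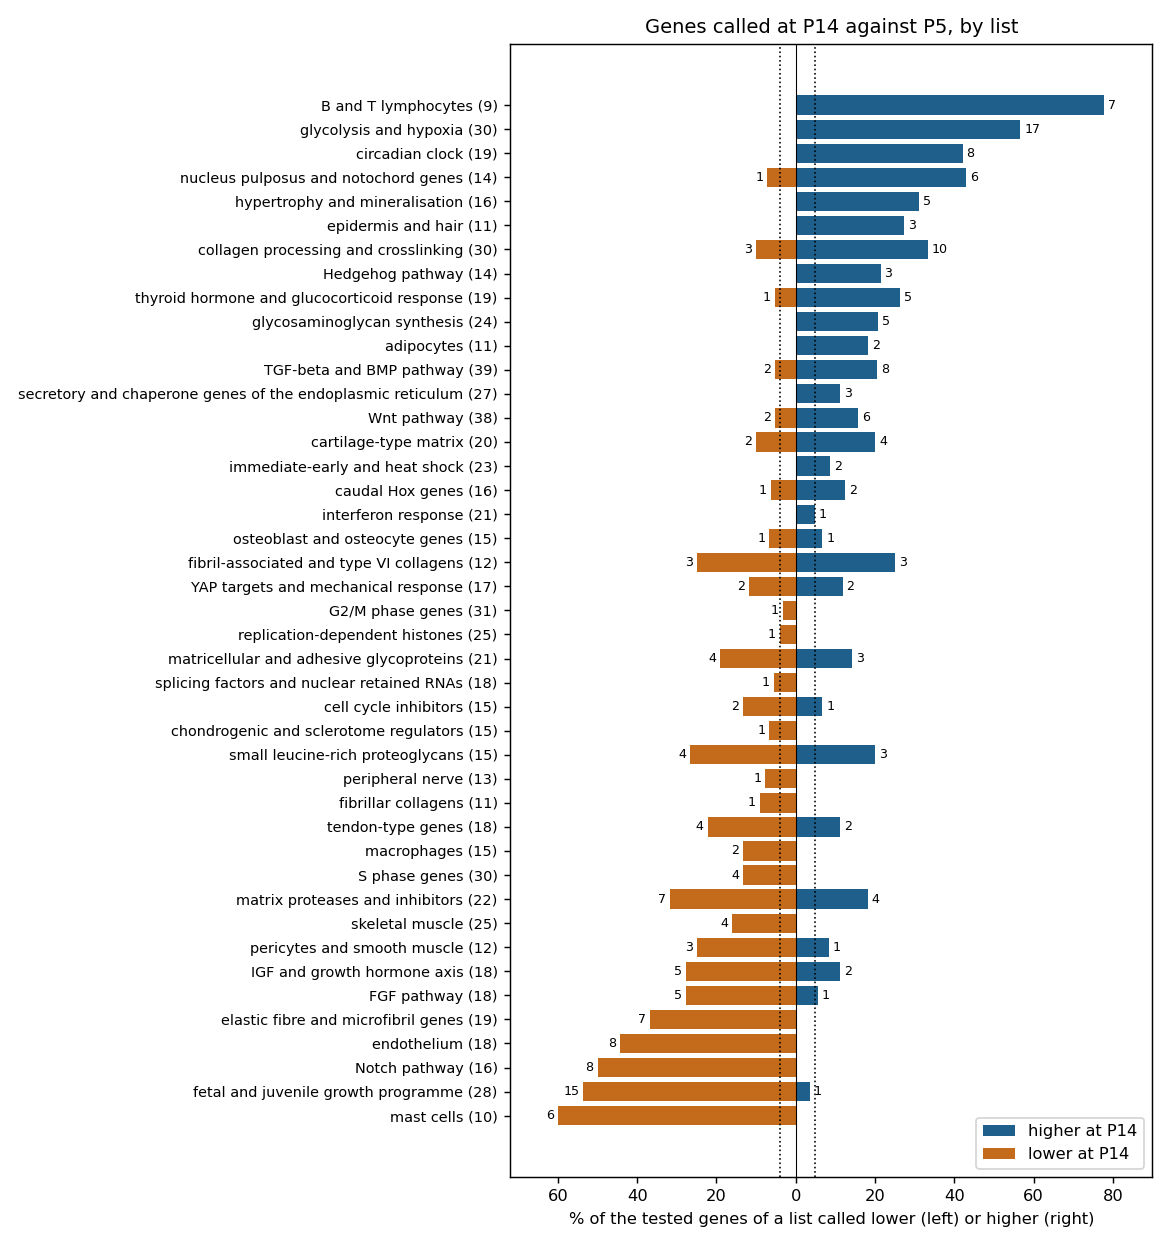
Percent of the tested genes of each list called lower (orange, left) or higher (blue, right) at P14; the number of genes tested stands in brackets, the number called at the bar's end, and dotted lines mark the 3.96% and 4.88% of all genes. Lists without any call are left out. Mast cell, fetal growth and Notch genes lie far to the left and lymphocyte, glycolysis and clock genes far to the right.

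The median of 18 of the 51 lists had opposite signs in the 2 kinds of library. Matrix lists were among them, with fibrillar collagens at 0.45 over 6% and -0.18 under, small proteoglycans at 0.28 and -0.34, collagen processing at 0.61 and -0.05, and glycosaminoglycan synthesis at 0.31 and -0.14. The medians of the fetal growth, mast cell and muscle lists were negative in both and those of the clock, glycolysis, nucleus pulposus and lymphocyte lists positive in both. Endothelial, macrophage and pericyte genes were negative in the libraries over 6% alone (-2.30, -1.30 and -1.33, against 0.08, 0.03 and 0.24), a comparison for which no test was made.

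**Figure D5:**
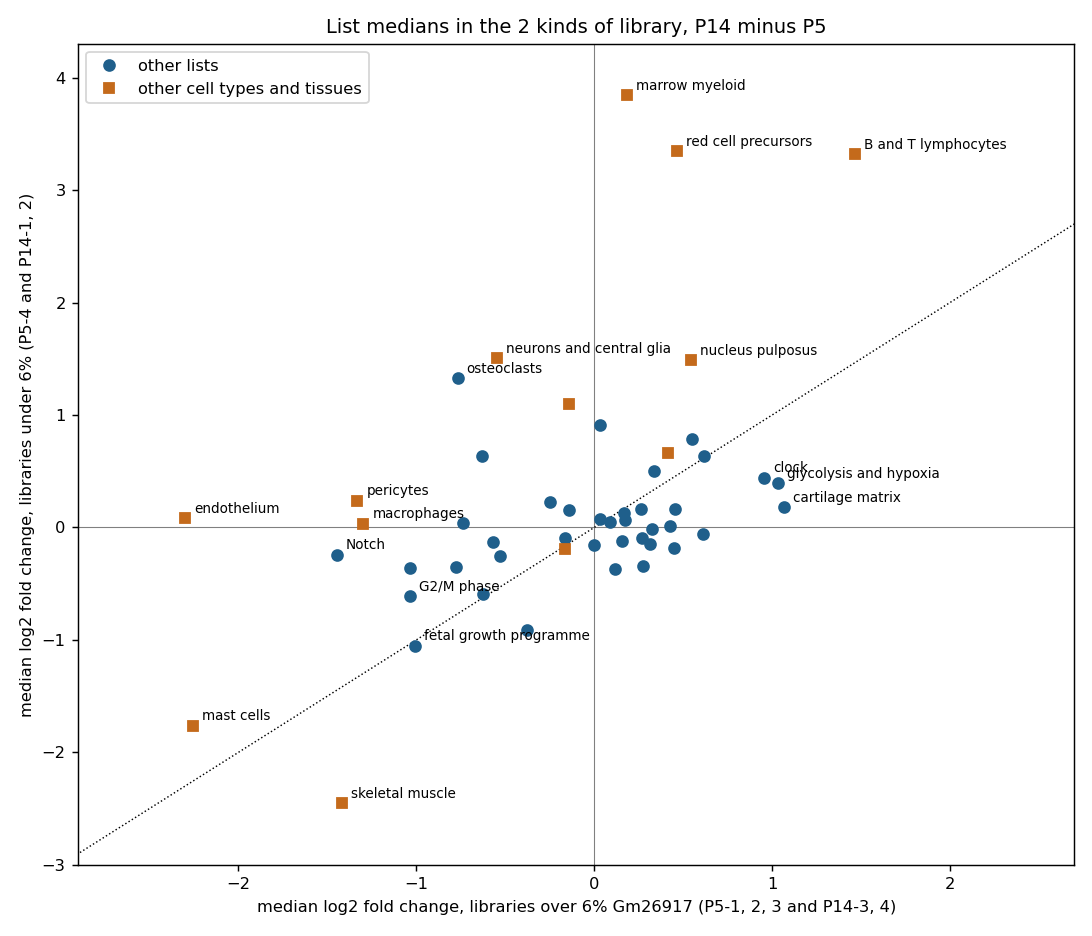
Median log2 fold change, P14 minus P5, of each gene list in the libraries over 6% Gm26917 (horizontal axis) and under 6% (vertical axis), squares for lists of other cell types and tissues and circles for all others; the dotted line marks equality. Fetal growth genes lie at -1.01 and -1.05, endothelium at -2.30 and 0.08, and marrow myeloid genes at 0.18 and 3.85.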

How the data were processed

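The deposited values are a signal in normalised reads. The authors divided gene counts by a size factor per library, and the submitters' processing notes name Trimmomatic 0.36, STAR 2.5.2b, build GRCm38, featureCounts of Subread 1.5.2 and DESeq2. The strand setting of the counting is not given in the sources used here. Dividing out 1 factor per library (0.5076 to 1.4836) returned whole reads for 100% of the values within 0.001, so depth is known. Symbols and positions came from GENCODE release 21, which held 17677 of the 17724 genes. Genes with a mean of at least 10 (17577) were log2 transformed after adding 1 and fitted with limma 3.58.1 in R 4.3.3, with eBayes set to follow the mean (trend, 4.163 prior and 12 residual degrees of freedom), to all 16 libraries of the series, so that P21 and P28 add to the spread estimate. Fold changes are on the log2(value + 1) scale, which understates changes of low genes, and all tests were two-sided. The same fit was tested on simulated data.

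The comparison, the 51 gene lists and the genes followed were chosen with earlier results of these data known. Named genes were the 12 largest rises and 12 largest falls among called genes with a mean of at least 100 and no overlap between ages, up to 4 called members per list (the 2 most abundant if none was called), 24 followed genes, and library checks; 1 gene that the rule names is not reported here. Lists are described by counts and medians, without a set test. Alternatives were other pseudocounts (0.5 and 5), filters and scalings, robust limma, the 8 libraries alone, a replicate block, count models on the whole reads (edgeR 4.0.16, DESeq2 1.42.0), leaving out libraries, and the Gm26917 share as covariate, term or split. Replicate numbers did not pair the libraries. No library was left out, and no pair of libraries agreed within sampling noise. Figures were drawn with Matplotlib 3.10.9.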

Additional observations from a re-analysis of the deposited data

Results flagged for a closer look

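A library standing apart from the other 3 of its age was found in 16 of the 238 sets of 4 tested (119 named genes at 2 ages, log2 values), where chance flags about 1 in 20 groups. In 11 of the 16 the library was P5 replicate 4, where Gm26917 was below 6% of reads.

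P5 replicate 4 stood above the other P5 libraries in 8 genes, most of them of matrix or its making. Scx had 8267 normalised reads there against 613.7 to 845.2, Bop1 17620 against 473.4 to 663.3, Chad 39470 against 11640 to 13000, Col2a1 2208000 against 722800 to 832900, Lox 21720 against 6680 to 7708, Cilp2 2776 against 905.9 to 1077, Csgalnact2 1369 against 885.8 to 897.1 and Foxo6os 72.1 against 9.72 to 13.7. It stood below them in the macrophage genes Mrc1 (90.7 against 346.3 to 392.9) and Adgre1 (26.3 against 101.4 to 108.1) and in Igf1 (540.9 against 2695 to 3501).

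At P14, replicate 2 stood above the others in Cdkn1a (1109 against 746.8 to 781.8) and Sbsn (671.6 against 438.7 to 470), replicate 4 below them in Fxyd3 (147.1 against 514.2 to 587.1), and replicate 3 below them in Thrb (529.9 against 694.9 to 704.5). At P5, replicate 3 stood below the others in Xist, with 7320 against 20160 to 24500.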

How the results depend on the processing

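The count of called genes (1553, of which 857 higher and 696 lower) moved by more than 1.5 times under these settings. DESeq2 called 1104 lower. The libraries over 6% Gm26917 called 559 higher, and those under 6% 35, 34 higher and 1 lower, where P5 is 1 library assumed to vary like the other groups. The log2 Gm26917 share as a covariate left 892, 541 higher and 351 lower, 855 of them among the 1553. Scaling to the same total gave 475 higher and 1549 lower, and that total without Gm26917 and mitochondrial genes 3228, 436 higher and 2792 lower. Leaving out P14 replicates 3 and 4 gave 448 lower. Leaving out 1 library gave 892 to 2517, with 487 to 1301 higher and 345 to 1216 lower, though some omissions, such as P14 replicate 3 (1469), stayed within 1.5 times. Other settings stayed within 1.5 times. The 8 libraries of P5 and P14 alone gave 1227, 658 higher and 569 lower, and kept 1043 of the 1553 calls. The replicate block gave 1506. Same-numbered libraries of the 2 ages did not deviate together (r across genes -0.19 to 0.063), so the block is no pairing. The cause of these shifts was not tested. The 84.2% of genes with the same sign in separate libraries became 87.4% at a mean of at least 50, 86.3% with quantile normalization, and 80.8% to 89.2% with 1 library left out. It has no value without P5 replicate 4, nor under settings that do not split the libraries. Of 100 called genes named here, 89 kept the call whichever library was left out, 98 with the kind of library as a term, 95 by edgeR and 98 by DESeq2. Among those 100, Scx was the 1 gene whose sign turned, to -0.026 in the libraries under 6%. Of all 1553 called genes, 1529 had the same sign in those libraries, so that other calls not named here turned too. Depth limits the B cell genes at P5 and the mast cell genes at P14, which have few reads there.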
